A study of Mus musculus with 8 samples.

Results

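Genes that carried more than 1 peak of accessible chromatin were examined in mouse kidney tubuloids, by taking every row of the deposited ATAC-seq peak table whose gene symbol occurred in at least 2 rows. These were 415 of the 6425 peaks, at 203 gene symbols, of which 194 had 2 peaks and 9 had 3 peaks (Sertad3, Fbrs, Egr1, Smad6, H4c1, Ing1, Tor1aip1, Zc3h12a and Chdh). Of the remaining peaks, 3976 were the only peak of their gene and 2034 had no gene symbol. All 415 member peaks were assigned to protein-coding genes, and 5 of the symbols were predicted or clone names. For each gene, the peak nearest its assigned transcription start site (TSS) was paired with the peak farthest from it, and both were compared in height and in their difference between treatments.

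Chromatin was profiled in 4 vehicle-treated libraries and 4 libraries from tubuloids given myoglobin, the haem-carrying oxygen store of muscle, which the series text uses to injure the tubule. All 8 libraries came from wildtype mice, from tubuloids grown in Matrigel out of dissected and dissociated kidney cortex, after 12 h of treatment and with 50000 cells per transposition reaction. The series text gives 4 mice without tying libraries to animals, so p-values measure only the spread between these libraries. The variance behind each p-value was drawn largely from all peaks or pairs, so a small p-value does not rest on the spread at its own gene alone. Of the marker genes for the labelled cell type, 3 of 6 for tubule epithelium had a peak (Cdh16, Cdh1 and Epcam), as did 1 of 7 for proximal tubule (Cryl1) and 1 of 7 for loop, distal tubule and collecting duct (Scnn1g). Of the endothelial, fibroblast, immune and podocyte markers, 0 of 4 in each list had a peak, and 0 genes of any marker list had 2 peaks.

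ATAC-seq marks DNA that the Tn5 transposase can reach. Promoters of active genes are usually open just upstream of the TSS, where nucleosomes are displaced and transcription factors and RNA polymerase bind. A gene can have several such openings: an alternative start, a divergent promoter shared with a neighbour, an enhancer inside the first intron, or a broad nucleosome-free region that a peak caller splits. Which of these a second peak is cannot be read from its height alone.

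The promoters below are shown because their genes are among the first in the comparisons that follow, of those with a window to print, and because they show where a RefSeq start lies relative to the paired peaks. Each is a RefSeq window on GRCm38.p6 from 250 bases before to 50 bases after a gene start, printed 5′ to 3′ in the direction of the gene. Below, a peak is said to overlap a start, or to be at it, when it shares any base with such a window. The start itself can then lie outside the peak. Eif5a had 6 such windows, and the one that overlapped its nearest peak most is printed. Capitals mark matches, on either strand, to short promoter motifs: CCAAT (the NF-Y box), GGGCGG (the GC box of Sp factors), CCGGAAG (ETS), TGACGTCA (CRE), TGANTCA (AP-1), TGACNNNGC (antioxidant response element) and the palindrome of NRF1. Overlapping matches are printed as 1 run of capitals. Eif5a (chr11:69921337-69921636, minus strand) and Tuba1b (chr15:98934341-98934640, minus strand) were among the 4 genes with the largest differences in favour of the nearest peak, and both windows overlapped that nearest peak:
Eif5a: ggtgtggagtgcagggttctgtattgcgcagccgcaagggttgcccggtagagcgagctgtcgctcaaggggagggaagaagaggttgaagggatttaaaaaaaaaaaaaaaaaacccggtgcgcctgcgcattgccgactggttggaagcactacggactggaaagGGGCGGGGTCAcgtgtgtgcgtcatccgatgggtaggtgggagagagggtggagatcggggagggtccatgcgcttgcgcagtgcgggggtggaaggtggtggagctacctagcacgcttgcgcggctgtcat
Tuba1b: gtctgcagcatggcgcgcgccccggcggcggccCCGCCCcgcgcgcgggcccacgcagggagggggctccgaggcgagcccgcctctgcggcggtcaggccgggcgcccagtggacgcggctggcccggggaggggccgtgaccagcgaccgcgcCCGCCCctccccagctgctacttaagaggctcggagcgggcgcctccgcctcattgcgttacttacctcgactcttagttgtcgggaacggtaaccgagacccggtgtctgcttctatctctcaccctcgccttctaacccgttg
Stub1 (chr17:25832870-25833169, minus strand) and Spred2 (chr11:19924192-19924491, plus strand) had the 2 largest differences in favour of the farthest peak. The Stub1 window overlapped the farthest peak, by 221 bp, and the Spred2 window overlapped the nearest peak, by 13 bp:
Stub1: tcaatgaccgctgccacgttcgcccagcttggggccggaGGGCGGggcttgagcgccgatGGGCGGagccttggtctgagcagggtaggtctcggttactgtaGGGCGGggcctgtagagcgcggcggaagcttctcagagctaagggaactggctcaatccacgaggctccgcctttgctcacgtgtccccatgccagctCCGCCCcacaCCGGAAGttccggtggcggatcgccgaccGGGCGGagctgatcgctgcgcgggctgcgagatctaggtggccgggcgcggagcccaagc
Spred2: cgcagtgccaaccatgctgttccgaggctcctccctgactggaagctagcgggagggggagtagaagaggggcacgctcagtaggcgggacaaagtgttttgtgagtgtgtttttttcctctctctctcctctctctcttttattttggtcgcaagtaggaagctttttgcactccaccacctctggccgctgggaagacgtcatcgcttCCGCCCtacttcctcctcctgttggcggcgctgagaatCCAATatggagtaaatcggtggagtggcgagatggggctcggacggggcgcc
F11r (chr1:171437311-171437610, plus strand) and Ap2m1 (chr16:20535230-20535529, plus strand) had the smallest p-values for unequal treatment differences at their peaks, and both windows overlapped the nearest peak:
F11r: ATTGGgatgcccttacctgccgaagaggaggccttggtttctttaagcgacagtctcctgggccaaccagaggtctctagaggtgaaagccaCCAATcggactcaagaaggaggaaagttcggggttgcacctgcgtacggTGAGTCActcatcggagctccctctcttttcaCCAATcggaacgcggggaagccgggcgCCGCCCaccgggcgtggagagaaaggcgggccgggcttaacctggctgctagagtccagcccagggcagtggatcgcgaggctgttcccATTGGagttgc
Ap2m1: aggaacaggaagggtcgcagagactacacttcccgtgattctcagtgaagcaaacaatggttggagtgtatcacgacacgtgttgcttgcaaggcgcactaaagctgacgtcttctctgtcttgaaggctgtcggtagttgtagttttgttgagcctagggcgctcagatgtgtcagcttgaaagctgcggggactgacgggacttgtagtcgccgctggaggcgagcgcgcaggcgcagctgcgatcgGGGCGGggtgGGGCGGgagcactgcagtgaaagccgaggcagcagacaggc
The Stub1 window held 5 GC boxes and 1 ETS match, the F11r window 4 CCAAT boxes, 1 GC box and 1 AP-1 match, the Eif5a window 1 GC box and 1 antioxidant response element, the Spred2 window 1 GC box and 1 CCAAT box, and the Tuba1b and Ap2m1 windows 2 GC boxes each. The GC box occurred in 35.6% of all 32817 RefSeq windows, in 79.0% of the 2939 windows at a peak of a gene with 1 peak, in 86.1% of the 137 windows at a nearest peak and in 77.1% of the 35 at a farthest peak. The CCAAT box occurred in 37.4%, 51.3%, 49.6% and 40% of the same sets, and the ETS motif in 8.86%, 21.6%, 13.1% and 14.3%. The CRE occurred in 1.79%, 3.88%, 4.38% and 0%, the AP-1 motif in 7.81%, 4.36%, 2.92% and 0%, the antioxidant response element in 12.4%, 17.2%, 19.7% and 11.4%, and the NRF1 palindrome in 0.966%, 2.35%, 2.92% and 5.71%. The median GC content of the 4 sets was 52.7%, 64.0%, 63.3% and 64.3%, so windows at peaks were GC-rich whether their gene had 1 peak or several. A match is a run of letters and not a bound site.

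Values are the authors' scaled read numbers per peak, rounded to whole numbers, and totals ran from 124415 to 126782 per library. An estimate of the reads behind them, from the spacing of the whole numbers, gave 130568 to 200519 reads in peaks for the vehicle libraries and 67645 to 123453 for the myoglobin libraries. Member peaks had a median of 15.4 to 24.0 estimated reads per peak in vehicle libraries and 8.05 to 14.8 in myoglobin libraries. Estimated depth thus went with treatment, and single-peak differences between groups carried large counting error. In bulk chromatin, fewer cells with an open site and less opening in each cell cannot be told apart.

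The paired peaks were close to each other. Over the 200 symbols with a single gene ID, the gap between them had a median of 462 bp and ran from 54 bp at Cgrrf1 to 8331 bp at a predicted gene, and it was under 500 bp in 101 genes, 500 to 5000 bp in 95 and more than that in 4. The nearest peak centred a median of 93 bp and the farthest 776 bp from the assigned TSS. Both lay within 1000 bp of it in 117 genes, the farthest alone lay beyond in 73, and both lay beyond in 13. The nearest peak was upstream of the TSS in 126 genes and downstream in 74, whereas the farthest was upstream in 67 and downstream in 133. Peaks of genes with 2 or more peaks were narrower than those of genes with 1 peak, with a median width of 185 bp against 224 bp, and lower, with a median value of 14.6 against 17.6. These are descriptions, since splitting a region into several peaks also makes each narrower.

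Of the symbols, 3 pooled more than 1 gene. H4c1, a histone H4 gene, carried 3 gene IDs, and its chromosome 13 peaks, with mean values of 9.62 and 7, overlapped the RefSeq starts of H4c3 and H4c6, and the remaining peak was on chromosome 6 at 8.12. H3-3a, which encodes the replacement histone H3.3, had its peaks on chromosomes 1 and 11, with mean values of 24.1 and 5.75. Rpl36a, a large-subunit ribosomal protein gene, had 1 peak on chromosome X at 6.25 and 1 on chromosome 12 at 12.5, and the latter overlapped the starts of Rpl36al and Mgat2. For these 3 symbols a difference between peaks is a difference between loci. H3-3a was named after its values were seen.

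Paired peaks differed in height in most genes, and the nearest peak was the higher one more often than the farthest. By limma on the within-library difference of log2(value + 1), with Benjamini-Hochberg adjustment over the 203 pairs and a threshold of 0.05, the nearest peak was higher in 96 genes (47.3% of pairs), the farthest in 51 (25.1%), and 56 did not pass. The difference had the same sign in all 8 libraries in 109 of the 147 genes that passed. The median value was 17.8 at nearest peaks (quartiles 10.8 and 24.9) and 12.6 at farthest peaks (quartiles 8.38 and 20.4). The nearest peak was the higher in 111 to 124 of 203 genes in each vehicle library and in 113 to 124 in each myoglobin library, so both groups showed the same order. The median difference, nearest minus farthest on the log2(value + 1) scale, was 0.45, with a range from -2.97 to 3.27.

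Peak width moved with these differences. Across the 415 member peaks, width and mean value had a Spearman rho of 0.87, a description over peaks that share their 8 libraries, and the higher peak was also the wider in 141 of the 147 genes that passed. Per 100 bp of width, the nearest peak was higher in 42 genes and the farthest in 24. Of the 147, 56 passed in the same direction per 100 bp and 1 passed in the opposite direction.

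Distance by itself did not order the peaks. Across member peaks, the assigned distance and the mean value had a Spearman rho of 0.03. Member peaks had a median value of 15.6 within 100 bp of the TSS (109 peaks), 13.9 from 101 to 1000 bp (204 peaks) and 15.6 beyond (102 peaks). In genes with 1 peak the same classes had medians of 16.4, 20.1 and 15.3. Where both peaks lay within 1000 bp, the nearest was higher in 55 of 117 genes and the farthest in 29. Where only the farthest lay beyond 1000 bp, the counts were 33 and 17 of 73, and where both lay beyond they were 8 and 5 of 13.

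**Figure D1:**
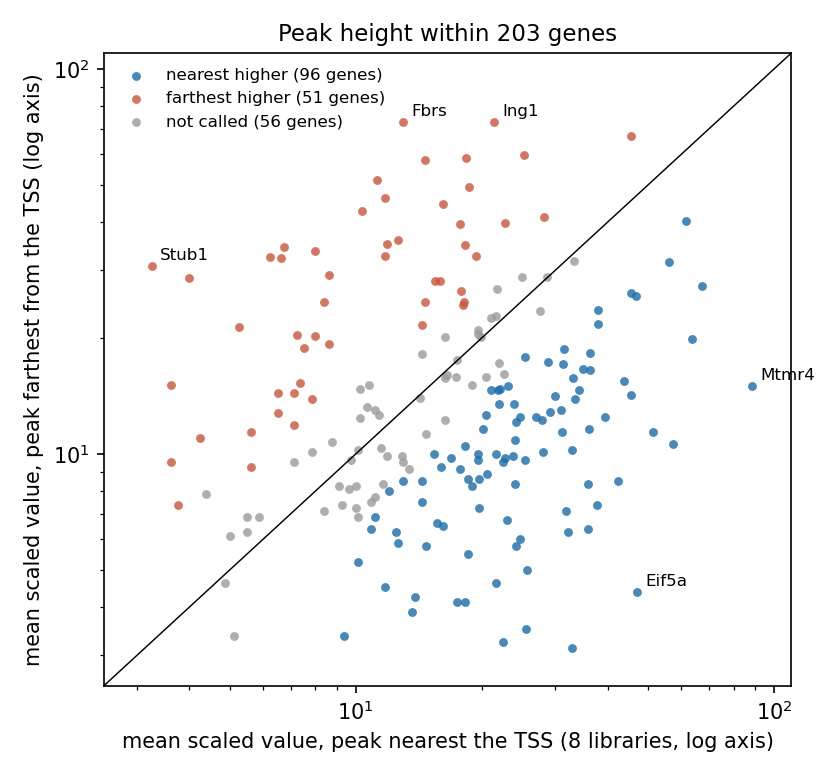
Mean scaled value over 8 libraries of the peak nearest the TSS (x, log axis) against the peak farthest from it (y, log axis), 1 point per gene, coloured by limma call (96 nearest higher, 51 farthest higher, 56 not called). Points spread on both sides of the line of equality, with Eif5a and Mtmr4 far below it and Stub1, Fbrs and Ing1 far above it.

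Heights were also set beside the position of RefSeq starts. For 164 of the 203 symbols RefSeq windows could be matched. In 113 genes only the nearest peak overlapped a start window of the gene, and there the nearest peak was higher in 58 (51.3%) and the farthest in 24 (21.2%). In 17 genes only the farthest peak did, and there the nearest was higher in 4 (23.5%) and the farthest in 11 (64.7%), with medians of 17.8 at nearest and 28.1 at farthest peaks. In 19 genes, among them the pooled symbol H3-3a, both peaks overlapped a start. Medians over the 19 genes were 11.9 at nearest and 9.50 at farthest peaks, and 10 did not pass the test. In 15 genes neither did, with 7 nearest higher, 4 farthest higher and 4 that did not pass. These counts describe the classes and the difference between them was not tested.

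**Figure D2:**
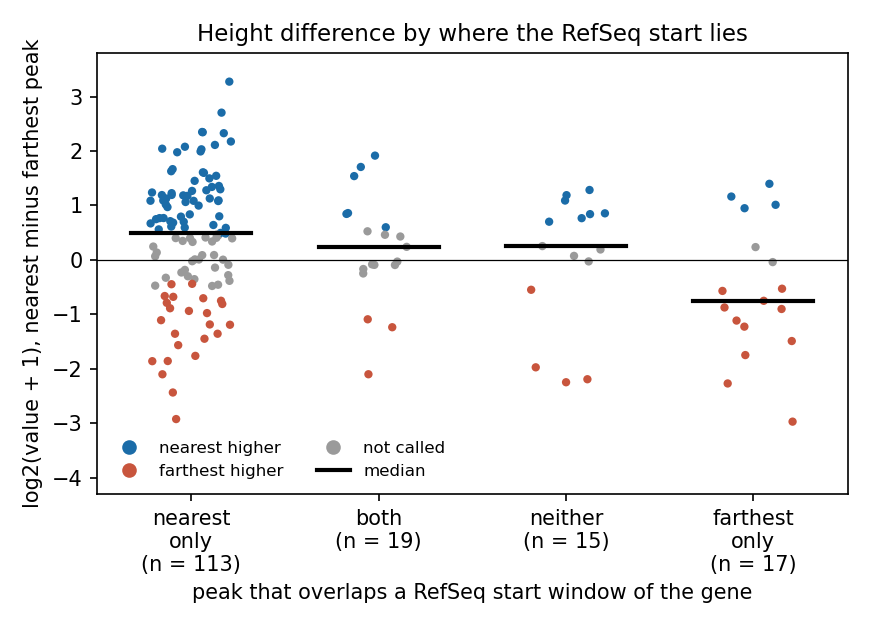
Height difference in log2(value + 1), nearest minus farthest peak, for 164 genes grouped by which peak overlaps a RefSeq start window of the gene, with 1 point per gene and a black line at each median. The median is 0.50 for the 113 genes whose start window overlaps the nearest peak only. It is -0.75 for the 17 whose start window overlaps the farthest only, and each class holds points on both sides of 0.

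The 17 genes in which a RefSeq start window overlapped the farthest and not the nearest peak were Ap5s1, Cdk9, Gapdh, Gpr108, Ing1, Lnpep, Mknk2, Ntan1, Park7, Ppp1r10, Rbm15, Rpl36a, Sesn3, Sin3a, Stub1, Tgif1 and Zfp788. Several of them were named after their values were seen. Sin3a, the scaffold of a histone deacetylase corepressor, had a mean value of 25.2 at 1653 bp and 59.6 at 4077 bp downstream of the assigned TSS, a log2 difference of -1.23 ± 0.13 (SE), with the farthest peak higher in 8 of 8 libraries. Gpr108, a Golgi membrane protein gene, had 11.9 at 45 bp and 35.0 at 558 bp, a difference of -1.49 ± 0.18. Sesn3, a sestrin that restrains mTORC1, had 18.2 at 118 bp and 34.9 at 1114 bp, a difference of -0.90 ± 0.15. Adjusted p by limma was 2.12e-12 for Sin3a, 9.71e-11 for Gpr108 and 6.87e-07 for Sesn3. Per 100 bp of width their differences were -0.27, -0.11 and -0.03 and did not pass. By the definition of this class, a RefSeq start window of the gene overlapped the farthest peak and none overlapped the peak nearest the assigned TSS. For Rpl36a, a pooled symbol, the peaks lie at different loci.

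Farther peaks of some genes overlapped the start of a neighbour. The farthest peak of Tor1aip1, the gene of the inner nuclear membrane protein LAP1, overlapped the start of Tor1aip2. That of Nde1, a centrosomal dynein regulator, overlapped the start of Marf1, and that of the clone-named gene 4930412O13Rik overlapped the start of Gata3, a transcription factor of the distal nephron. The Nde1 peak at the Marf1 start had a mean value of 24.9, against 14.6 at the nearest peak, a log2 difference of -0.75 ± 0.19, with adjusted p = 0.000277 by limma. The peak at the Gata3 start had 17.1, against 31.4 at the nearest peak of 4930412O13Rik. Nde1 and 4930412O13Rik were named after their values were seen.

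The 6 largest differences with the nearest peak higher were at Eif5a, Rbm27, Plekhf2, Tuba1b, Mtmr4 and Ebag9. Eif5a encodes the hypusinated translation factor eIF5A. Its nearest peak (chr11:69921291-69921754), 435 bp downstream of the assigned TSS, had values of 48, 45, 43 and 51 in vehicle and 48, 54, 37 and 51 in myoglobin libraries. Its farthest peak, at 2139 bp, had 3, 7, 6 and 4 in vehicle and 1, 3, 4 and 7 in myoglobin libraries. No value at the farthest peak reached any at the nearest, and the log2 difference was 3.27 ± 0.22 (SE), with adjusted p = 1.58e-19 by limma. The nearest peak held the entire RefSeq window printed above, which was chosen among the 6 windows of Eif5a for its overlap with that peak.

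Tuba1b encodes an alpha-tubulin. Its nearest peak (chr15:98934416-98934678), at 18 bp, had values of 13, 27, 24 and 20 in vehicle and 24, 32, 17 and 23 in myoglobin libraries. A separate peak 172 bp away had 4, 4, 5 and 0 in vehicle and 5, 0, 4 and 4 in myoglobin libraries. The log2 difference was 2.7 ± 0.31, adjusted p = 1.66e-11 by limma, and 0 of 8 libraries had the farthest peak higher. Tubb4b, a beta-tubulin gene named after its values were seen, also had the higher peak near its start, with a mean value of 57.4 at 111 bp and 10.6 at 3952 bp.

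Rbm27 encodes an RNA-binding protein of the nuclear exosome pathway. At its nearest peak, 75 bp from the TSS, values were 41, 34, 29 and 34 in vehicle and 35, 29, 37 and 24 in myoglobin libraries. At the farthest, at 278 bp, they were 3, 7, 4 and 5 in vehicle and 1, 2, 2 and 1 in myoglobin libraries, and the log2 difference between the peaks was 3.18 ± 0.25. Plekhf2, which encodes an endosomal phosphoinositide-binding protein, had 23, 41, 27 and 22 in vehicle and 27, 23, 15 and 26 in myoglobin libraries at 141 bp. At 482 bp it had 7, 2, 2 and 1 and 1, 2, 6 and 7, a log2 difference of 2.74 ± 0.28. At both genes the peaks did not overlap in value in any library, and adjusted p by limma was 2.90e-17 and 7.37e-13.

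Mtmr4, a phosphatase of phosphatidylinositol 3-phosphate on endosomes, had the highest mean value among all member peaks, 88.8. Its nearest peak (chr11:87591792-87592349) had 109, 89, 104 and 88 in vehicle and 76, 72, 78 and 94 in myoglobin libraries. Its farthest, at 3447 bp, had 10, 14, 11 and 18 in vehicle and 15, 18, 24 and 10 in myoglobin libraries. The log2 difference between peaks was 2.53 ± 0.14, with adjusted p = 9.69e-23 by limma. Ebag9, an oestrogen-responsive gene of the Golgi, had mean values of 36.0 at 24 bp and 6.38 at 339 bp, a difference of 2.35 ± 0.20. Per 100 bp of width the differences at Mtmr4 and Ebag9 were 0.37 and 0.47 and did not pass, whereas Eif5a (1.39), Rbm27 (1.96), Plekhf2 (1.13) and Tuba1b (1.70) still passed.

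The 6 largest differences with the farthest peak higher were at Stub1, Spred2, Fbrs, Ppp1r10, Mamstr and Ddr1. Stub1 encodes CHIP, a chaperone-bound ubiquitin ligase. Its peak 1 bp from the assigned TSS had values of 4, 2, 6 and 2 in vehicle and 2, 2, 6 and 2 in myoglobin libraries. Its peak at 317 bp (chr17:25832949-25833224) had 25, 24, 26 and 34 in vehicle and 41, 43, 24 and 29 in myoglobin libraries. All 8 libraries had the farthest peak higher, and the log2 difference was -2.97 ± 0.26, with adjusted p = 2.43e-15 by limma. This higher peak is the one that overlaps the GC-box-rich RefSeq window printed above.

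Spred2 encodes an inhibitor of Ras to ERK signalling. Its nearest peak, 218 bp upstream, had 6, 2, 1 and 12 in vehicle and 2, 6, 0 and 3 in myoglobin libraries. The farthest, 4049 bp upstream (chr11:19920145-19920506), had 33, 29, 30 and 36 in vehicle and 19, 21, 34 and 27 in myoglobin libraries, and overlapped no RefSeq start of a coding gene. Here the higher peak lay away from the gene start, and the log2 difference was -2.92 ± 0.29, with adjusted p = 1.55e-13 by limma. Ddr1, a collagen-binding receptor tyrosine kinase, had a mean value of 6.62 at 3465 bp upstream and 32.2 at 4562 bp downstream, a difference of -2.19 ± 0.22, and neither of its peaks overlapped a coding gene start.

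Ppp1r10 encodes PNUTS, a nuclear targeting subunit of protein phosphatase 1. Its nearest peak, at 20 bp, had 9, 6, 3 and 8 in vehicle and 4, 6, 4 and 10 in myoglobin libraries. Its farthest, at 357 bp, had 40, 31, 29 and 23 in vehicle and 35, 28, 39 and 35 in myoglobin libraries, a log2 difference of -2.27 ± 0.22. The farthest overlapped starts of both Ppp1r10 and Mrps18b, a mitochondrial ribosomal protein gene, and the nearest overlapped a start of Mrps18b. Mamstr, a coactivator of MEF2 factors, had mean values of 6.75 at 1157 bp and 34.4 at 3736 bp, a difference of -2.25 ± 0.21. Per 100 bp of width the difference at Mamstr was -0.45 and did not pass, whereas those at Stub1 (-1.72), Spred2 (-1.15), Ddr1 (-1.17) and Ppp1r10 (-0.87) did.

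**Figure D3:**
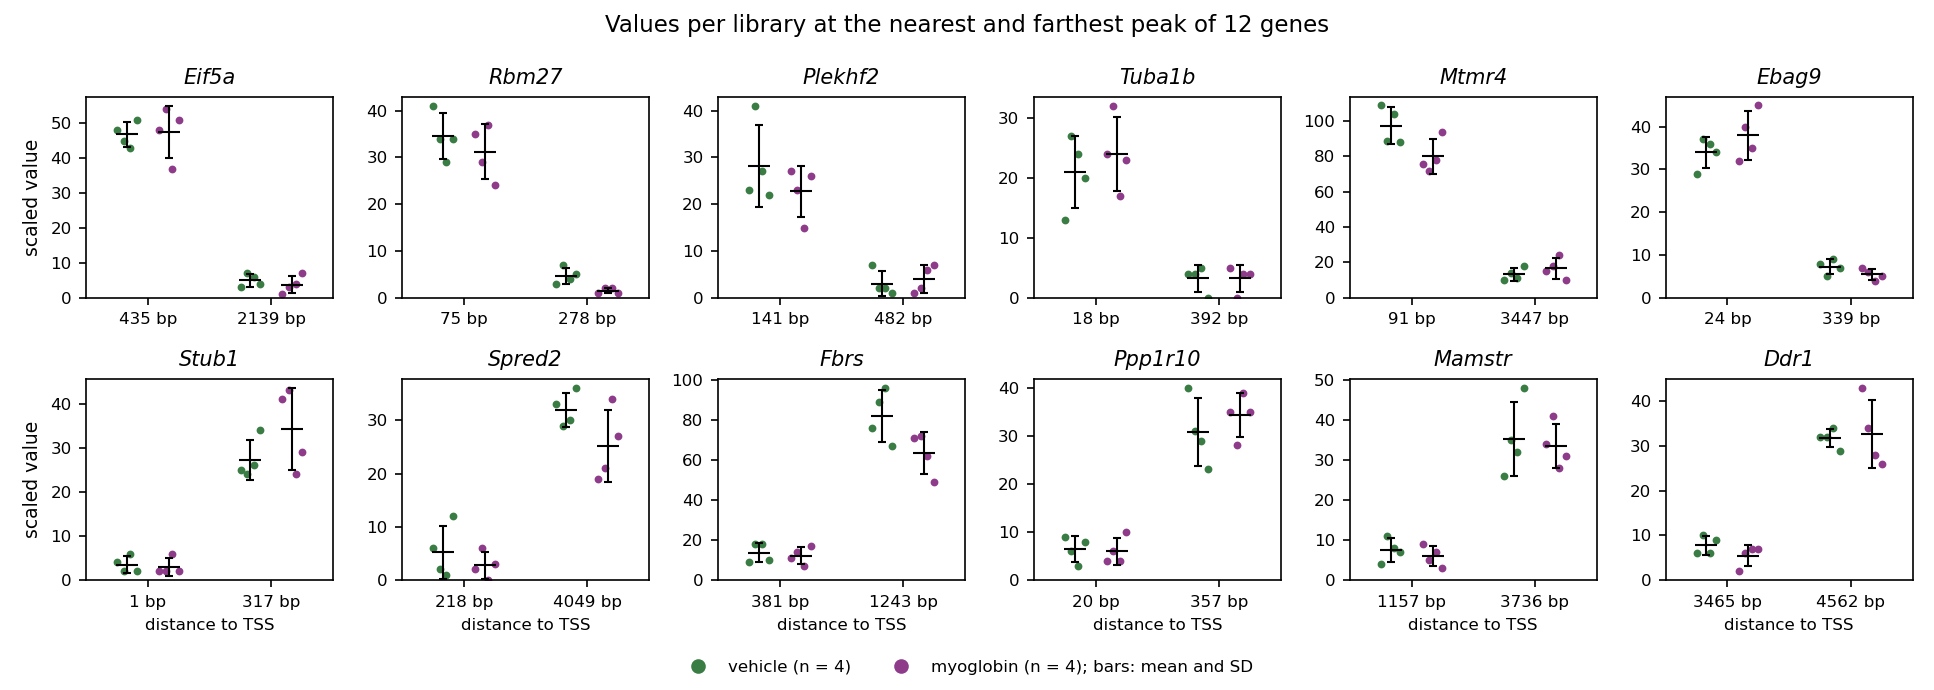
Scaled value per library at the nearest and farthest peak of 12 genes, each peak marked by its distance to the TSS in bp, with 4 vehicle and 4 myoglobin libraries as points and bars at the mean and SD. In the upper row the nearest peak is higher in all 8 libraries of each gene, and in the lower row the farthest peak is.

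The 9 genes with 3 peaks differed in the order of heights. At Fbrs, the peaks at 381, 608 and 1243 bp, all upstream, had mean values of 13, 2.38 and 72.8. The highest (chr7:127477725-127478186) had 76, 89, 96 and 67 in vehicle and 71, 72, 62 and 49 in myoglobin libraries, and the difference, nearest minus farthest, was -2.44 ± 0.15 with adjusted p = 4.17e-21 by limma. Sertad3, a regulator of transcription and the cell cycle, likewise had its highest peak farthest away, with 16.1 at 87 bp, 7.88 at 415 bp and 44.5 at 983 bp. Ing1, a reader of histone H3 lysine methylation in the Sin3 deacetylase complex, had mean values of 21.4 at 229 bp upstream, 41.0 at 358 bp and 72.6 at 2616 bp downstream.

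The Ing1 peaks at 358 and 2616 bp each overlapped a RefSeq start of the gene and the nearest did not. In the farthest peak of Ing1 (chr8:11557943-11558431) vehicle libraries had 76, 76, 82 and 74 and myoglobin libraries 69, 72, 63 and 69, so the groups did not overlap. The log2 difference was -0.17 ± 0.12, adjusted p = 0.791 by limma. Other members of this family also had several peaks. Ing2 had mean values of 32.9 at 210 bp and 10.2 at 1911 bp, and Ing3 had 19.8 at 138 bp and 7.25 at 455 bp, with the nearest peak higher in 8 of 8 libraries in each. The family thus had both orders in value. Per 100 bp of width the differences were -0.17 at Ing1 and 0.005 at Ing3 and did not pass. At Ing2 it was 0.69 and still passed. Ing2 and Ing3 were named after their values were seen.

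Egr1, an immediate early transcription factor gene, had its 3 peaks within its first 1133 bp, with mean values of 7.25 at 182 bp, 16.1 at 702 bp and 20.4 at 1133 bp. The farthest was higher than the nearest by a log2 difference of -1.51 ± 0.25 (nearest minus farthest), with adjusted p = 3.71e-07 by limma, and in 8 of 8 libraries. Per 100 bp of width the Egr1 difference was -0.16 and did not pass. Tor1aip1 had the opposite order, with 27.0 at 45 bp, 8.75 at 335 bp and 12.5 at the Tor1aip2 start. The difference at Tor1aip1 was 1.06 ± 0.20 with adjusted p = 3.42e-06.

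In the other 4 genes with 3 peaks the nearest and farthest did not pass. Smad6, an inhibitory SMAD of BMP signalling, had mean values of 10.8, 18.5 and 15.1 at 10, 1001 and 3374 bp. Zc3h12a, the gene of Regnase-1, which degrades inflammatory mRNAs, had 12.9, 9.62 and 9.88 at 132, 3054 and 3235 bp. Chdh, the mitochondrial choline dehydrogenase gene, had 11.1, 7.88 and 13 at 55, 1064 and 3046 bp, and its nearest peak also overlapped a start of Il17rb. H4c1 is described with the pooled symbols.

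Genes of stress, metabolic and growth lists were mostly represented by 1 or 2 genes. In the hypoxia and glycolysis list, 12 of 20 genes had a peak and 2 had several. Slc2a1, the GLUT1 glucose transporter gene, had 34.9 at 15 bp and 16.6 at 2767 bp, a log2 difference of 1.09 ± 0.18, adjusted p = 2.01e-07 by limma. Gapdh, a glycolytic enzyme gene, had the reverse, with 15.5 at 119 bp upstream and 28.1 at 756 bp downstream, where the peak overlapped its RefSeq start window. The Gapdh difference was -0.87 ± 0.18 with adjusted p = 2.95e-05 by limma. Per 100 bp of width the Gapdh difference was 0.18 and did not pass.

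In the immediate early and AP-1 list, 10 of 23 genes had a peak, and besides Egr1 the list held Jun, a core AP-1 subunit, with 38.0 at 137 bp and 21.8 at 1115 bp, both upstream. Its log2 difference was 0.80 ± 0.15, and per 100 bp of width it was -0.04 and did not pass. In the heat shock and folding list, 12 of 23 genes had a peak. Dnaja1, an HSP40 cochaperone gene, had 4.25 at 17 bp and 11 at 303 bp, and Hsph1, an HSP110 gene, had 16.4 at 5 bp and 20.1 at 365 bp. The farthest peak was higher at Dnaja1 (adjusted p = 0.00014 by limma) and Hsph1 did not pass (adjusted p = 0.142). Per 100 bp of width the Dnaja1 difference was -0.51 and did not pass, whereas that of Hsph1 was -0.68 and did.

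Further list members with the nearest peak higher were Nr1d2, the circadian repressor REV-ERB-beta (63.5 and 19.9), Pcna, the sliding clamp of DNA replication (25.4 and 9.62), and Sesn2, a p53-induced sestrin (16 and 9.25). Zbtb18, a zinc finger repressor (27.9 and 12.2), Zfp788, a zinc finger gene (28.0 and 10.1), and Slc4a2, an anion exchanger (29.1 and 12.9), had the same order, as did Rpl36a across its 2 loci. Orders of named genes given without a result per 100 bp are orders in value alone. Of the 147 genes that passed, 56 passed in the same direction per 100 bp. Acaa2, the last enzyme of mitochondrial beta-oxidation, had mean values of 9.75 and 9.62 at 67 and 357 bp upstream and did not pass. No gene of the lists for haem, iron and NRF2 (9 of 22 with a peak), integrated and ER stress (15 of 22), NF-kB and inflammation (5 of 19), TGF-beta and matrix (7 of 19) or chromatin regulators (17 of 27) had 2 peaks. The symbol-pattern list for the mitochondrial ribosome and respiratory chain had 49 genes with a peak and 0 with 2. That for small non-coding RNA genes had 0 with a peak. Over all genes, 203 symbols had 2 or more peaks and 3976 had 1, so counts of 0 in lists this short cannot show a shortage. The chromatin regulator list held 27 genes and left out Sin3a and Ing1, described above, which had 2 and 3 peaks.

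The 3 genes with the highest mean over both peaks were Mtmr4, Mnt and Znf687. Mnt, a MAX partner that opposes MYC, had 45.5 at 542 bp upstream and 67.1 at 1348 bp downstream, a log2 difference of -0.55 ± 0.11. Znf687, a zinc finger gene, had 61.5 at 159 bp and 40.2 at 847 bp, both upstream, a difference of 0.61 ± 0.11. Adjusted p by limma was 1.01e-05 and 2.84e-06, and each order held in 8 of 8 libraries. At Znf687 the higher peak was the narrower, 308 against 420 bp wide, and the difference per 100 bp was 1.00.

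Myoglobin gave no call at any peak of these genes. By limma over all 6425 peaks, 0 of 415 member peaks passed, against 16 of all peaks (0.249%), and the lowest adjusted p was 0.233. At an unadjusted p under 0.05, 10 member peaks were higher (2.41%, against 3.67% of all peaks) and 24 were lower (5.78%, against 3.92%). The 4 libraries of each group did not overlap at 11 member peaks (2.65%, against 3.04% of all peaks), 2 of them higher with myoglobin. The 95% interval of a member peak's log2 difference had a median half-width of 0.56, and the narrowest was 0.23.

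Without the 2 myoglobin libraries with the fewest estimated reads (replicates 2 and 3), an alternative chosen after seeing the data, 1 member peak passed. It was the peak 109 bp upstream of Vapa, which encodes a tether of the endoplasmic reticulum to other membranes. Its values were 7, 10, 9 and 6 in vehicle and 18, 8, 7 and 27 in myoglobin libraries, so the 2 omitted libraries were those within the vehicle range. Its log2 difference was 0.66 with adjusted p = 0.659 in all libraries and 1.38 with adjusted p = 0.0405 without them.

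Member peaks lay slightly lower with myoglobin as a set. The median log2 difference, myoglobin minus vehicle, was -0.08 over the 415 member peaks and -0.02 over all peaks, and 60.7% of member peaks were below 0, against 52.8% of all peaks, 51.0% of peaks of genes with 1 peak and 54.7% of peaks without a symbol. Member peaks held 6.16%, 6.32%, 6.12% and 6.18% of the library total in vehicle and 5.92%, 6%, 5.77% and 5.97% in myoglobin libraries, and the groups did not overlap. Medians were -0.11 at nearest and -0.06 at farthest peaks, with 128 and 120 of 203 below 0. Without myoglobin replicates 2 and 3, the shallowest libraries, they were -0.04 and -0.06, and without myoglobin replicate 1 they were -0.07 and -0.07, so the order of nearest and farthest turned or vanished. By distance they were -0.09 within 100 bp, -0.07 from 101 to 1000 bp and -0.09 beyond. Estimated depth was lower in every myoglobin library than in every vehicle library, so depth and treatment cannot be told apart here. The closest were myoglobin replicate 1 with 123453 and vehicle replicate 3 with 130568 estimated reads in peaks. The share of the total was 5.92% and 5.97% in the 2 deeper myoglobin libraries, which by this estimate were still shallower than every vehicle library. The part of depth was not tested.

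The direction of the myoglobin difference matched between the 2 peaks of a gene about as often as between any 2 peaks. The signs matched in 105 of 203 genes (51.7%), with both higher in 30 and both lower in 75, against 50.2% over every possible pair of peaks in the table. Across genes, the differences at nearest and farthest peaks had a Pearson r of -0.03 and a Spearman rho of -0.04 (203 genes, which share all 8 libraries). The share was 50.5% for gaps under 500 bp, 55.8% for 500 to 5000 bp and 1 of 4 for larger gaps. It was 47.9% where both peaks lay within 1000 bp of the TSS and 57.5% where the farthest lay beyond. Neighbouring peaks of different genes or of no gene, with gaps under 5000 bp, had 51.6% (64 of 124). Their differences had a Pearson r of 0.40 and a Spearman rho of 0.03. Peaks that lean to the same sign match more often by that alone. In the 203 genes, nearest peaks were below 0 in 63.1% and farthest in 59.1%, against 52.8% of all peaks. Both were lower in 44 of 95 genes with gaps of 500 to 5000 bp and in 31 of 101 with smaller gaps. The 50.2% comes from peaks with less of this lean, so a class share above it does not show agreement within a gene.

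**Figure D4:**
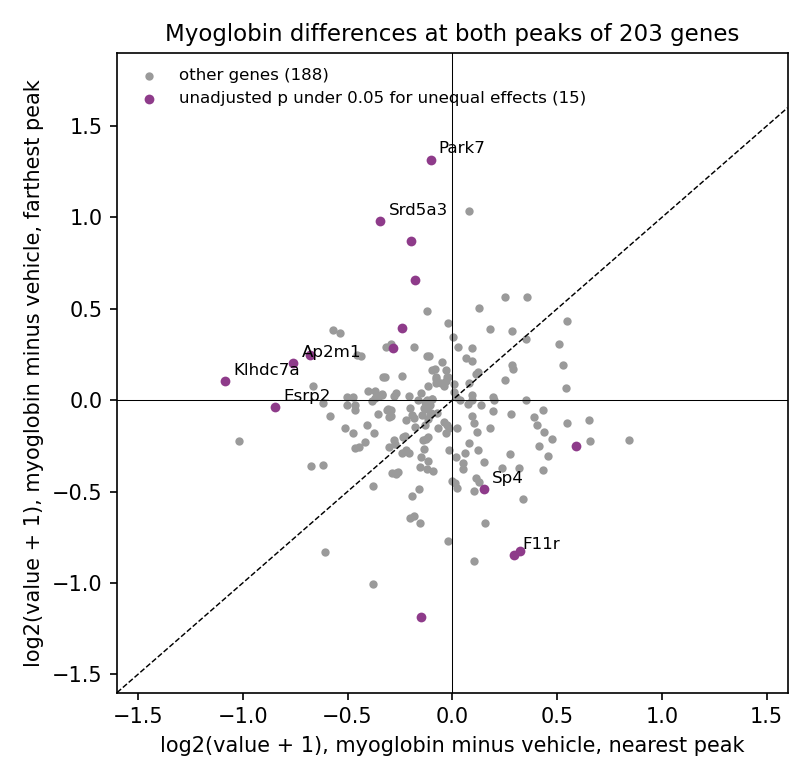
Difference in log2(value + 1), myoglobin minus vehicle, at the nearest (x) and farthest (y) peak of 203 genes, with the dashed line marking equal differences and 15 genes with unadjusted p under 0.05 for unequal differences in purple. Points form a round cloud, with 105 genes in the quadrants where the signs match and 98 in the others.

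The difference between the 2 effects was also tested in each gene. By limma on the within-library difference, 0 of 203 genes passed (0.0%), with a lowest adjusted p of 0.651, and 15 (7.39%) had an unadjusted p under 0.05. The 95% interval of this difference had a median half-width of 0.88 on the log2 scale, from 0.43 to 1.41. It lay within 1 of 0 in 64 genes and within 0.5 of 0 in 0 genes, so unequal effects of moderate size could be neither shown nor bounded in most genes.

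The 6 genes with the smallest p are given as values, since none passed. F11r encodes JAM-A, an adhesion protein of epithelial tight junctions. Its nearest peak (chr1:171437318-171437610) had 31, 16, 17 and 23 in vehicle and 26, 21, 28 and 30 in myoglobin libraries. Its peak 2671 bp downstream (chr1:171440140-171440271) had 12, 12, 10 and 10 in vehicle and 4, 6, 7 and 6 in myoglobin libraries. Groups overlapped at the first and not at the second, and the difference between the effects was 1.14 (95% interval 0.29 to 2.00), with adjusted p = 0.651 by limma, which is also the adjusted p of the other 5 genes.

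Ap2m1 encodes the medium subunit of the AP-2 clathrin adaptor. At its nearest peak (chr16:20535292-20535528), vehicle libraries had 28, 21, 26 and 24 and myoglobin libraries 12, 20, 11 and 15, without overlap. At 1752 bp downstream vehicle libraries had 18, 19, 15 and 23 and myoglobin libraries 15, 20, 32 and 22, with overlap. Here the start-proximal peak had the lower myoglobin values, the reverse of F11r, and the difference between the effects was -0.96 (95% interval -1.70 to -0.22). The nearest Ap2m1 peak alone had a log2 difference of -0.76 ± 0.24, adjusted p = 0.292 by limma.

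Srd5a3 encodes polyprenol reductase, an enzyme of dolichol synthesis for N-glycosylation. Its peak at 24 bp had 5, 10, 6 and 8 in vehicle and 7, 3, 4 and 9 in myoglobin libraries. Its peak at 304 bp (chr5:76140463-76140686), which had the lowest adjusted p of all member peaks, had 7, 15, 5 and 12 in vehicle and 18, 14, 21 and 23 in myoglobin libraries. The log2 difference there was 0.98 ± 0.30 and the groups overlapped by 1 vehicle library. Klhdc7a, a kelch domain gene, had 10, 11, 15 and 8 in vehicle and 6, 8, 2 and 4 in myoglobin libraries at 125 bp, against means of 19.8 and 20.8 at 350 bp. The effect differences were -1.32 (95% interval -2.35 to -0.30) and -1.19 (-2.12 to -0.26). With a pseudocount of 5 the Klhdc7a difference was -0.78.

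Sp4, a GC-box-binding factor of the Sp family, had means of 43.0 ± 7.12 in vehicle and 48.0 ± 9.35 in myoglobin libraries (SD, n = 4) at 153 bp. At 716 bp upstream it had 34, 32, 25 and 31 in vehicle and 25, 15, 22 and 25 in myoglobin libraries. Esrp2, an epithelial splicing regulator, had 12, 11, 18 and 20 in vehicle and 9, 9, 4 and 11 in myoglobin libraries at 15 bp, and means of 46.8 ± 7.18 and 45.5 ± 6.76 at 1771 bp. The groups overlapped or touched at all 4 of these peaks. The effect differences were 0.64 (95% interval 0.11 to 1.17) for Sp4 and -0.81 (-1.49 to -0.13) for Esrp2. Without myoglobin replicates 2 and 3 the Esrp2 difference was -0.40.

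**Figure D5:**
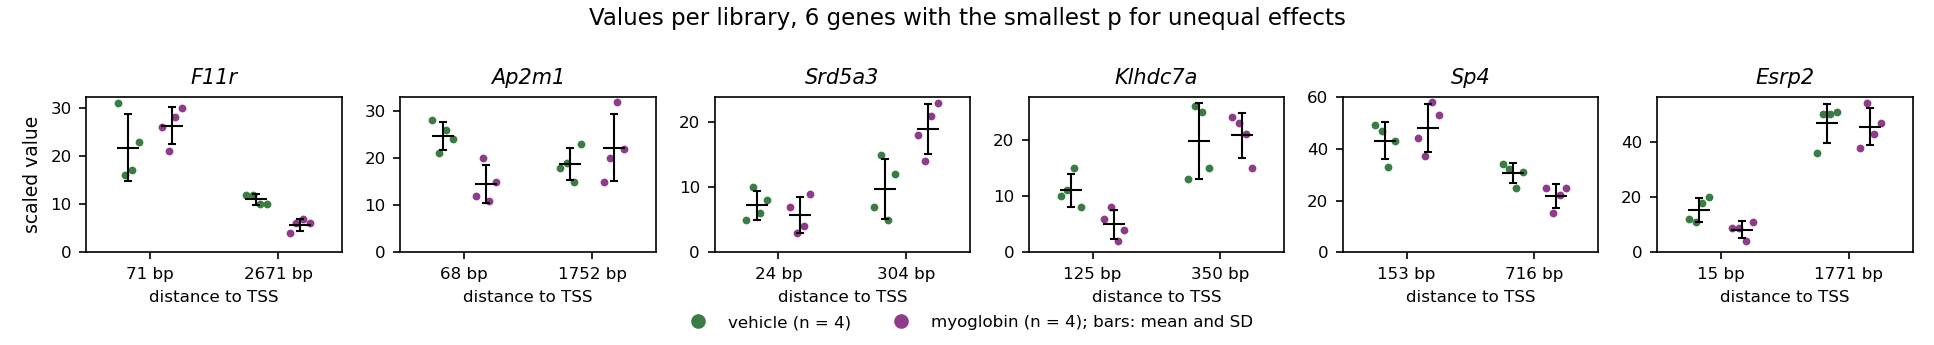
Scaled value per library at the nearest and farthest peak of the 6 genes with the smallest p for unequal myoglobin differences, peaks marked by distance to the TSS in bp, points for 4 vehicle and 4 myoglobin libraries and bars at the mean and SD. Vehicle and myoglobin points separate at the 2671 bp peak of F11r and the 68 bp peak of Ap2m1, and overlap or touch at the other 10 peaks.

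Zbtb18 and Park7 are also given as values. Neither passed at either peak, and the difference between the effects at their peaks did not pass. Zbtb18 had 26, 26, 16 and 21 in vehicle and 36, 37, 30 and 31 in myoglobin libraries at its nearest peak, without overlap, and the log2 difference was 0.59, adjusted p = 0.376 by limma. At the peak 535 bp upstream of Zbtb18 the means were 13.2 and 11.2. Park7, the gene of the oxidative stress protein DJ-1, had the largest difference of any member peak, 1.32 at 4589 bp, where vehicle libraries had 7, 4, 0 and 4 and myoglobin libraries 9, 6, 9 and 10, with adjusted p = 0.489. The vehicle values at that Park7 peak include a 0, so its log2 difference rests on low values. That peak overlapped the RefSeq start of Park7 and the peak at 56 bp did not. Park7 and Vapa were named after their values were seen.

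The paired downstream peaks of Zc3h12a had the same direction. At 3054 bp, vehicle libraries had 1, 7, 10 and 8 and myoglobin libraries 9, 14, 17 and 11, and at 3235 bp they had 5, 6, 7 and 8 against 17, 12, 17 and 7. Their log2 differences were 1.09 ± 0.39 and 0.87 ± 0.35, with adjusted p = 0.436 and 0.556 by limma. The nearest Zc3h12a peak, at 132 bp, had a difference of -0.20 ± 0.31, with means of 13.8 in vehicle and 12.0 in myoglobin libraries. None of the 3 peaks passed, and groups overlapped at each.

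None of the gene lists had a member peak that passed the test for myoglobin. At an unadjusted p under 0.05 the lists held 1 peak, the nearest of Zbtb18, among the 8 peaks of the zinc finger list. Over all peaks, 3.67% were higher and 3.92% lower at that p, so a single peak is no result about the lists. The median log2 difference over the peaks of a list was -0.09 for the immediate early and AP-1 genes (5 peaks), -0.01 for heat shock and folding (4 peaks) and 0.06 for hypoxia and glycolysis (4 peaks), beside -0.02 over all peaks. For Mt1, the metal- and haem-responsive metallothionein gene, named after its values were seen, means were 17.5 ± 2.38 in vehicle and 17.2 ± 4.11 in myoglobin libraries at 5 bp (SD, n = 4). At the Mt1 peak 4262 bp downstream they were 16.5 ± 3.79 and 15.2 ± 4.57, so neither peak differed by more than its spread.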

How the data were processed

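ATAC-seq was deposited as 1 table of peaks on mm10 with 8 library columns. The deposited values are treated as a score: the authors scaled the libraries to one another and rounded to whole numbers, as the near-equal totals and the regular steps in each column show. DESeq2 1.36.0, featureCounts, Picard 3.0.0, STAR 2.7.10a and Trimmomatic 0.39 are listed in the submitters' processing notes, without roles. For the peak caller, duplicates and any Tn5 shift, the entry is: not given in the sources used here. The unsigned distance of the peak centre to the TSS is the authors' deposited value in bp, and the side of the TSS came from the deposited gene coordinates. Peaks were deposited as 1 set for all libraries, so heights depend on how that set was cut.

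Factors for estimated reads came from the steps in each column. Factors below 0.6 were not searched, since a factor that low and its double give nearly the same steps. Tests used limma 3.58.1 in R 4.3.3 on log2(value + 1), with treatment as covariate, a variance trend and no filter, with Benjamini-Hochberg adjustment over 6425 peaks or, for within-library differences between peaks, 203 pairs. The log2 scale understates changes of low peaks. No count model was fitted, since these are not raw counts. The prior carried 51.6 degrees of freedom for pairs and 78.5 for peaks, against 6 from the libraries. The fit of pairs and the estimate of factors were also run on simulated data, and no support is drawn from that here. Promoter windows and start positions came from RefSeq (GRCm38.p6), matched by symbol or unique synonym on the same chromosome. Motif shares used windows matched by symbol.

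The members and lists were chosen with earlier results of these data known. Named were the genes with 3 peaks, the 6 largest height differences in each direction with the same sign in 8 libraries, the 6 smallest p for unequal effects, member peaks called for myoglobin, the 3 highest pairs, and up to 2 genes per list. Predicted or clone names were counted and not named under the rules on size and p. Alternatives were pseudocounts of 0.1 and 5, a mean value of 10 or more, other scalings, no variance trend, the replicate number as a block, each library left out, other choices of pairs, and value per width.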

Additional observations from a re-analysis of the deposited data

Results flagged for a closer look

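In 182 sets of 4 libraries (the peaks of the named genes in each group), the highest or lowest library was compared with the gap to its neighbours by Dixon's criterion for 4 samples. It singled out 5 sets, and at a rate of 0.05 chance alone gives about 9.1. At the Esrp2 peak 1771 bp from the TSS, vehicle replicate 1 had 36 against 50, 50 and 51. At the Sertad3 peak at 415 bp, vehicle replicate 2 had 11 against 4, 4 and 5. At the Plekhf2 peak at 482 bp, vehicle replicate 1 had 7 against 1, 2 and 2. At the Fbrs peak at 608 bp, myoglobin replicate 3 had 4 against 2 in each other library, and at the Stub1 peak at 1 bp it had 6 against 2 in each other library. The Plekhf2, Fbrs and Stub1 peaks had mean values of 3.50, 2.38 and 3.25.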

How the results depend on the processing

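Heights, calls for myoglobin, effect differences and shares of matching signs were recomputed under each alternative. The nearest peak was higher in 48 pairs and the farthest in 28 when both peaks needed a mean of 10 or more, which left 105 pairs. Per 100 bp of width the counts were 42 and 24, and with value + 1 divided by width, chosen after seeing the data, 42 and 22. With each replicate left out in turn they were 93 to 99 and 49 to 52. The remaining alternatives gave 94 to 99 and 49 to 58. Member peaks called for myoglobin were 0 in all alternatives except without the 2 shallowest libraries, where 1 (Vapa) was called. Effect differences called were 0 in every alternative, with 8 at an unadjusted p under 0.05 under the filter, 9 without myoglobin replicate 3 and 10 to 18 otherwise. Matching signs ran from 48.8% to 55.7%. Height differences of Mtmr4, Ebag9 and Mamstr did not pass in either width alternative. Correlations of deviations between same-numbered libraries were 0.0258, 0.0153, -0.0132 and 0.00855. Between differently numbered libraries they ran from -0.0615 to 0.0386. With so few reads per peak, these values cannot show whether same-numbered libraries shared a mouse. With the replicate number as a block, the nearest peak was higher in 94 pairs, the farthest in 51, and 0 effect differences and 0 member peaks were called. At single peaks, depth was a median of 8.05 to 24.0 estimated reads per member peak and library.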
